A study of Macaca fascicularis with 64 samples.

Results

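The genes described here are the nuclear-encoded subunits of oxidative phosphorylation, 83 of the 28141 genes in the tables. They were chosen by name: the NDUFA, NDUFB, NDUFC, NDUFS and NDUFV genes, SDHA to SDHD, the UQCR genes, COX4 to COX8, and the ATP5 genes, without the assembly factors. By row name 57 were found, and 26 more, all COX genes, UQCR genes or SDHA, were listed under a LOC identifier and found through its symbol in the RefSeq gene table. They fall into complex I (36 genes), complex II (4), complex III (8), complex IV (19, with NDUFA4 and NDUFA4L2 counted there) and complex V (16). The name rule also takes in ATP5S and ATP5SL, which are not subunits of ATP synthase itself, and it does not cover CYC1 or NDUFAB1.

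RNA was sequenced from tissues of cynomolgus monkeys (Macaca fascicularis), a macaque used as a primate model. Of the 4 newborns sampled, those named KO2 and KO3 are labelled SIRT6 mutant, and those named WT2 and WT3 wild-type. From every newborn 7 tissues were taken (heart, muscle, kidney, liver, brain, thymus and lung) with 2 repeat libraries of each, which makes 56 libraries. A further 8 libraries, all wild-type, are fetal: muscle and brain at gestation month 2 and month 4, with 2 libraries for each pairing of tissue and month. Titles were read as naming animals, which no label states. SIRT6 encodes a nuclear sirtuin that removes acyl groups from histones. The labels give neither the position of the mutation nor the sex or litter of the animals, and they do not say whether the fetal libraries came from separate fetuses.

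Oxidative phosphorylation makes most of the ATP of resting cells. Complexes I and II pass electrons from NADH and succinate to coenzyme Q, complex III passes them on to cytochrome c, complex IV hands them to oxygen, and complex V uses the proton gradient to make ATP. Several complex IV subunits exist in tissue forms: COX6A2 and COX7A1 are the forms of heart and skeletal muscle, COX6A1 and COX7A2 the forms of most other tissues, and COX4I2 is known as a form of lung. The mitochondrially encoded subunits were not analysed here.

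Levels are FPKM, which corrects for gene length. Values listed 4 at a time are for KO2, KO3, WT2 and WT3 in that order, each averaged over the repeat libraries. The median difference between repeat libraries of an animal over the subunits was 0.0466 to 0.15 on the log2(FPKM + 1) scale, depending on the tissue. Between WT2 and WT3 it was 0.19 to 0.586, and between KO2 and KO3 it was 0.248 to 0.576, so the animals differed more than the repeats did. SIRT6 itself stood at 5.24, 11.8, 11.0 and 11.5 FPKM in kidney and at 7.64, 11.8, 8.05 and 8.16 in lung. Its level overlapped between genotypes in all tissues but brain, where both KO animals were lower, and heart, where both were higher. Since the site of the mutation is not given, the level does not test the labels. The markers of each tissue summed higher in every animal's own tissue than in any other newborn tissue, and 1 departure touches muscle: brain markers summed to 355 FPKM in muscle of KO3, against 27.8 to 47.8 in muscle of the other animals.

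The subunits took a larger part of the summed FPKM in heart than in any other newborn tissue. In heart they made up 8.48%, 8.50%, 10.02% and 9.58% of the sum. Muscle followed in the wild-type animals, with 3.29%, 3.90%, 5.47% and 6.70%. Brain held 3.72%, 4.29%, 3.81% and 4.12%, and kidney 2.31%, 2.57%, 4.13% and 4.62%. Liver, thymus and lung held the smallest parts, with 2.94% in liver of WT3 the highest value among them. In muscle, kidney and liver both KO animals stood below both WT animals, with a KO mean that was 0.591, 0.558 and 0.602 times the WT mean. An exact permutation test of these 2 against 2 animals cannot give a p below 0.33. Heart showed the same order of the animals, but when the 50 highest genes of each library were left out of the sum the heart values were 8.81%, 8.22%, 8.38% and 8.66%, and the genotypes overlapped. Without those genes the muscle, kidney and liver values kept both KO animals below both WT animals, at 0.694, 0.618 and 0.684 times the WT mean. In brain these values placed both KO animals above both WT animals. The genes left out included subunits, which then dropped out of the share as well. Per library these were 4 or 5 in KO heart and 6 to 8 in WT heart. In brain they were 1 or 2 in KO and 3 or 4 in WT. These values thus do not cover the same subunits in both genotypes. The heart overlap and the brain order cannot be separated from that.

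**Figure D1:**
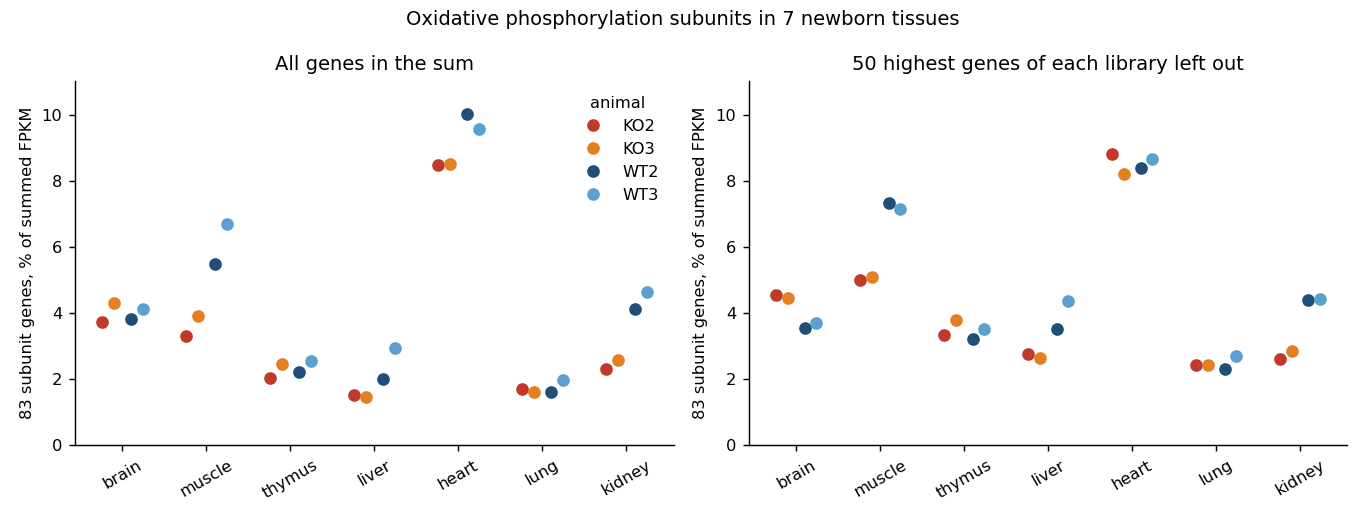
Part of the summed FPKM of a library that lies in the 83 subunit genes (y axis, percent) for each newborn tissue (x axis), with 1 point per animal. The left panel uses all genes and the right panel leaves out the 50 highest genes of each library, including any subunits among them. Heart is highest in both panels, and muscle, liver and kidney show both KO animals below both WT animals in both.

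The order of tissues was next read gene by gene. Heart was the tissue with the highest level for 75 of the 83 subunits in KO2, 71 in KO3, 67 in WT2 and 45 in WT3. In WT3 muscle was the highest for another 28. Lung was the lowest tissue for 45 subunits in KO3, 54 in WT2 and 56 in WT3, but in KO2 for 18 only, where liver was the lowest for 34. COX7C, a small structural subunit of complex IV, had the highest median of all subunits over the newborn libraries, 1728 FPKM. Its WT means were 4517 in heart, 3690 in muscle and 690 in lung. UQCR10, a small complex III subunit, had a median of 1.52 FPKM, and was named here for that low value.

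Heart and muscle together were compared with the other 5 tissues over 4 animals, from each animal's own difference. Of 82 subunits tested, 77 were higher in the striated muscles and 3 were lower, beside 67.5% of all genes called, 17.8% higher and 49.7% lower. The median log2 difference was 1.46, against -0.34 over all genes tested. Every gene of complexes I, II, III and V that was tested passed as higher, and the exceptions were all in complex IV. COX6A2 was 8.99 ± 0.28 (SE) higher on the log2 scale, with an adjusted p of 3.49e-09. COX7A1 was 5.09 ± 0.24 higher, with an adjusted p of 2.35e-08. Among subunits without a muscle form, UQCR11 of complex III was 2.73 ± 0.21 higher and NDUFS7, an iron-sulfur subunit of complex I, was 2.46 ± 0.21 higher. The 3 lower ones were COX6A1 (-1.23 ± 0.14), COX7A2 (-0.55 ± 0.14) and COX8C (-0.62 ± 0.14), the first 2 being the counterparts of the muscle forms. COX7A2L and COX7B2 did not pass. A gene was tested where its mean over the libraries compared was at least 1 FPKM, and COX6A2 and COX8C met that through their higher side alone. Their means were 697 FPKM in striated muscle against 0.436 elsewhere for COX6A2, and 0.304 against 1.76 for COX8C, so both had to differ and their calls support nothing.

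Core enzyme subunits were also higher in the striated muscles. NDUFS1, the largest iron-sulfur subunit of complex I, was 1.18 ± 0.18 higher in the striated muscles. SDHA, the flavoprotein of succinate dehydrogenase, was 1.42 ± 0.17 higher, and UQCRC1, a core protein of complex III, 1.54 ± 0.19 higher. COX5A of complex IV was 2.15 ± 0.19 higher and ATP5B, the catalytic beta subunit of ATP synthase, 1.15 ± 0.19 higher. All 5 passed the threshold. The citric acid cycle list moved alike, with 16 of 17 genes higher and none lower (median 1.26). The complex assembly factors had 19 of 44 tested higher and 3 lower (median 0.27).

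Between the striated muscles, heart was the higher one. Of 82 subunits, 47 were higher in heart than in muscle and none lower, beside 20.1% of all genes called, 12.0% higher and 8.13% lower. The median log2 difference was 0.76, against 0.06 for all genes. Complex I held 24 of these calls, complexes IV and V 10 each, and complex III 3, while none of the 4 complex II genes passed. COX7A2 was 1.63 ± 0.14 higher in heart, and COX7B, another small complex IV subunit, 1.47 ± 0.11 higher. COX6A2 differed by 0.08 ± 0.10 and did not pass (adjusted p = 0.61), and COX7A1 by -0.24 ± 0.11 (adjusted p = 0.198). The count depended on each animal and on the filter: leaving out KO2 or KO3 left 0 calls, leaving out WT2 left 3 and leaving out WT3 left 12, and with no filter on low genes 5 were called, while the median stayed between 0.66 and 0.88 in those fits.

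The gap between heart and muscle was wider in KO than in WT animals. The geometric mean FPKM of complex I was 220 in heart and 93.6 in muscle in KO, against 206 and 165 in WT. That of complex III was 243 and 109 in KO, against 259 and 238 in WT. In WT3 complex III was lower in heart (207 against 245), as was complex II (46.5 against 76.5). This genotype difference was not tested. For COX7A1 the order of the tissues was opposite in the genotypes. In WT animals COX7A1 was lower in heart than in muscle, by -1.01 and -1.13 on the log2 scale. In KO animals it was higher in heart, by 0.63 and 0.55. Its FPKM was 692, 599, 1621 and 1910 in muscle and 1078, 878, 808 and 872 in heart, so the wild-type muscle values are the ones that stand apart. Of 82 subunits tested, 6 had opposite signs in the genotypes in this way (ATP5D, COX6A2, COX7A1, NDUFA7, NDUFV3 and SDHC), all positive in KO, beside 3.74% of all genes in that direction and 10.8% in either. The COX6A2 values of the WT animals lay close to 0. These were picked after their values were seen, and that genotype difference was not tested.

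The shares within isoform pairs do not depend on how a library is scaled. COX7A1 made up 91.3%, 89.5%, 94.4% and 96.2% of COX7A1 plus COX7A2 in muscle. In heart its share was 75.6%, 76.8%, 80.4% and 83.2%. In the other tissues it lay between 2.57% and 25.5%, highest in liver and kidney. In both striated muscles the KO animals had the lower share, with no overlap, and a two-sided exact permutation gave p = 0.33, the smallest it can reach here. COX6A2 made up 88.0%, 84.0%, 79.2% and 90.2% of its pair in muscle, where the genotypes overlapped. In heart its share was 76.1%, 78.4%, 80.1% and 84.7%, with both KO animals below both WT animals. Outside the striated muscles COX6A2 stayed under 1% of the pair in every animal.

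COX4I2 was the subunit of lung. Its FPKM in lung was 114, 118, 92.3 and 186, and its share of COX4I1 plus COX4I2 was 31.3%, 32.6%, 23.4% and 49.6%. In no other newborn tissue did the share exceed 5.53%. Lung was compared with the other 6 tissues in the same way, and 1 subunit was higher and 72 were lower, beside 37.1% of all genes called, 16.8% higher and 20.3% lower. COX4I2 was the one that was higher, by 4.08 ± 0.36 on the log2 scale (adjusted p = 0.000816). The median log2 difference was -1.11, against 0.06 over all genes. COX5A (-1.76 ± 0.24), COX8A (-1.75 ± 0.12) and NDUFS7 (-1.75 ± 0.15) were among the lowest. COX6A2 and UQCR10, both among the 72, had lung means under 1 FPKM and were tested through the other tissues alone. Pericyte and vascular smooth muscle markers summed to 675, 833, 1017 and 1184 FPKM in lung and to between 37.4 and 566 in the other 6 tissues, and their part in the COX4I2 level was not tested. Lung epithelial markers summed to 2132, 1810, 20080 and 19160 FPKM, with none of 6 called between genotypes, and the part of that difference was not tested either. With no filter on low genes 48 subunits were called.

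**Figure D2:**
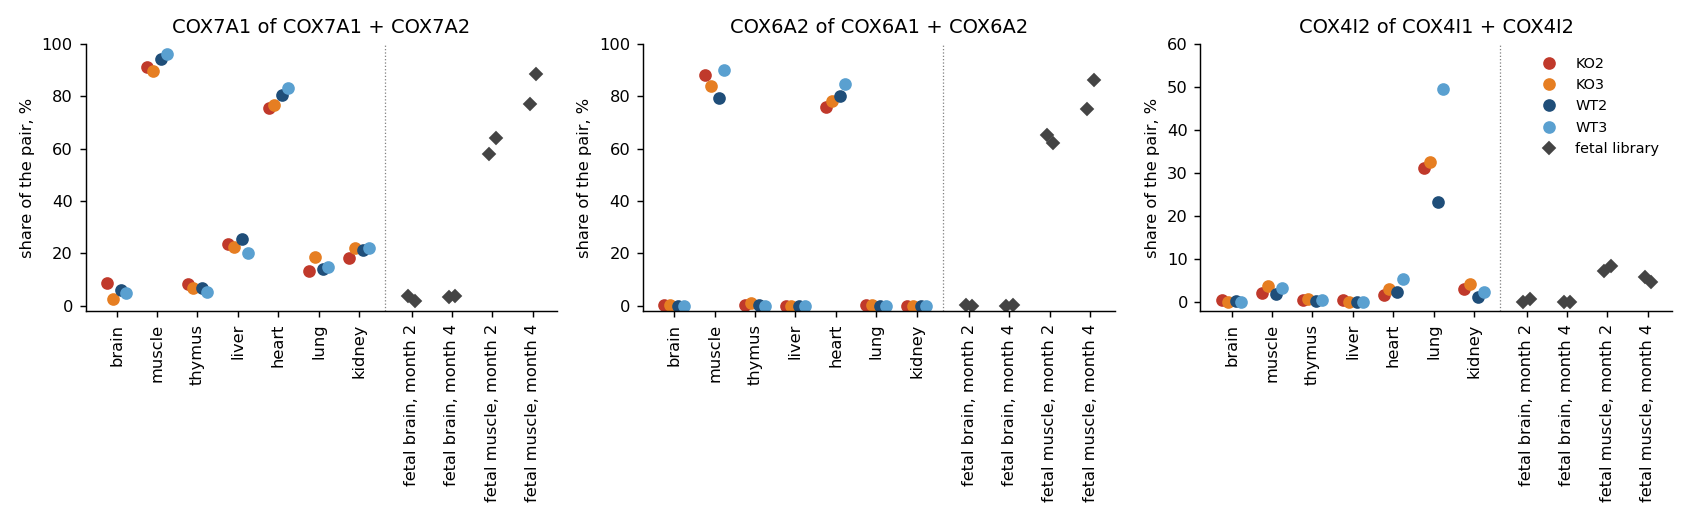
Share of the muscle or lung form in its pair (y axis, percent) by newborn tissue and, right of the dotted line, by fetal tissue and month, for COX7A1, COX6A2 and COX4I2. Coloured points are animals (mean of 2 libraries) and grey diamonds are single fetal libraries. COX7A1 and COX6A2 are high in muscle and heart, and COX4I2 is high in lung.

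Brain had a mixed pattern. Against the other 6 tissues 13 subunits were higher and 7 lower, beside 59.3% of all genes called, 29.2% higher and 30.2% lower, so the share called was smaller among the subunits than among all genes. COX6A1 (1.53 ± 0.16), COX5A (1.21 ± 0.17), COX7A2 (1.04 ± 0.16) and NDUFA4, a subunit now counted with complex IV, (1.01 ± 0.17) were higher, as was NDUFA3 of complex I (1.50 ± 0.22). COX4I2 (-2.79 ± 0.36), COX6A2 (-2.51 ± 0.23) and COX7A1 (-2.42 ± 0.30) were lower, COX6A2 being tested through the other tissues alone, at a brain mean of 0.854 FPKM. SDHD, a membrane anchor of complex II (-1.50 ± 0.24), SDHC, the other anchor (-0.49 ± 0.18), and UQCRB of complex III (-1.01 ± 0.19) were also lower. The count was 32 without KO3, 30 without KO2, 12 without WT2 and 11 without WT3.

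The genotypes were then compared within each tissue, with 2 KO and 2 WT animals. In bulk tissue fewer cells of a type and less RNA per cell cannot be told apart, here or in the comparisons of tissues and months. In muscle 8 of 81 subunits tested were lower in KO and none higher, beside 2.32% of all genes called, 0.745% higher and 1.58% lower. The median log2 change of the subunits was -0.89, against -0.00 over all genes. Both KO animals were below both WT animals for 67 of the 81, beside 20.2% of all genes, and above for none, beside 21.6%.

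The muscle genes that passed belong to complexes I, III and IV. COX8A, a small complex IV subunit, stood at 602, 588, 1679 and 1764 FPKM. It fell by 1.53 ± 0.33 on the log2 scale (adjusted p = 0.0118). COX5A was at 76.0, 123, 279 and 399 FPKM, the largest fall of the 8, with a log2 change of -1.78 ± 0.42 (adjusted p = 0.0187). COX7A1, whose values are given above, changed by -1.45 ± 0.34 (adjusted p = 0.0171). In each of these the KO values sat clearly apart from the WT values.

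In complex III, UQCRFS1, the Rieske iron-sulfur protein, was at 38.6, 99.5, 182 and 245 FPKM in muscle and changed by -1.75 ± 0.46 (adjusted p = 0.0387). UQCR11 was at 974, 948, 2374 and 2937 FPKM and changed by -1.46 ± 0.32 (adjusted p = 0.0122). UQCRQ, at 432, 395, 1022 and 1066 FPKM, also fell, by 1.34 on the log2 scale. UQCRFS1 differed strongly between KO2 and KO3, while UQCR11 and UQCRQ hardly did. In complex I, NDUFS7 was at 198, 198, 576 and 538 FPKM and changed by -1.49 ± 0.38 (adjusted p = 0.0308). NDUFB2, an accessory subunit, was at 421, 464, 1096 and 1267 FPKM and changed by -1.42 ± 0.35.

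Other muscle subunits moved less or varied more. COX6A2 was at 618, 623, 565 and 904 FPKM, with a log2 change of -0.20 ± 0.36, so the KO animals lay within the WT range. ATP5B was at 112, 294, 393 and 512 FPKM and NDUFS1 at 9.54, 23.8, 38.0 and 45.3, both with KO2 far below KO3, and neither passed (adjusted p = 0.132 and 0.16). SDHA was at 24.0, 48.5, 58.1 and 83.5 FPKM (adjusted p = 0.336) and UQCRC1 at 52.2, 103, 182 and 213 (adjusted p = 0.0949). COX7B2 had the highest log2 change in muscle, 1.24 ± 0.53, and did not pass.

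The muscle count depends on single animals and on scaling. Leaving out WT3 left 0 subunits called and leaving out KO2 left 1, which was higher, while 6 were called without KO3 and 4 without WT2. No filter on low genes left 0 as well. Quantile normalisation also left 0, although the median stayed negative at -0.59 and 73 of 81 changes were below 0. Markers of muscle as a tissue and of its fibres were also summed in muscle. The muscle tissue markers summed to 54520, 38880, 83950 and 70030 FPKM, with both KO animals below both WT animals. Slow-fibre markers summed to 11280, 3860, 20650 and 23650 FPKM, with 6 of 9 genes tested lower. Fast-fibre markers summed to 32060, 24480, 32980 and 24560 FPKM, so the genotypes overlapped, with 5 of 11 genes lower. Embryonic-fibre markers summed to 1025, 2184, 211 and 355 FPKM, with 3 of 8 higher and none lower. Erythroid markers summed to 121, 223, 1087 and 1139 FPKM in muscle. Their sums were lower in both KO animals in every other newborn tissue but lung as well. In heart, for example, they were 946.5, 275.8, 3556 and 5502 FPKM. The part of these markers in the subunit result was not tested.

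Lists of related mitochondrial genes had negative medians in muscle, with few calls. None of 17 citric acid cycle genes passed, at a median log2 change of -1.22. Of 17 tested genes for electron carriers and coenzyme Q synthesis 2 were lower, and none of 43 assembly factors (median -0.44) or 45 genes of the large mitochondrial ribosomal subunit (median -0.42) passed.

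**Figure D3:**
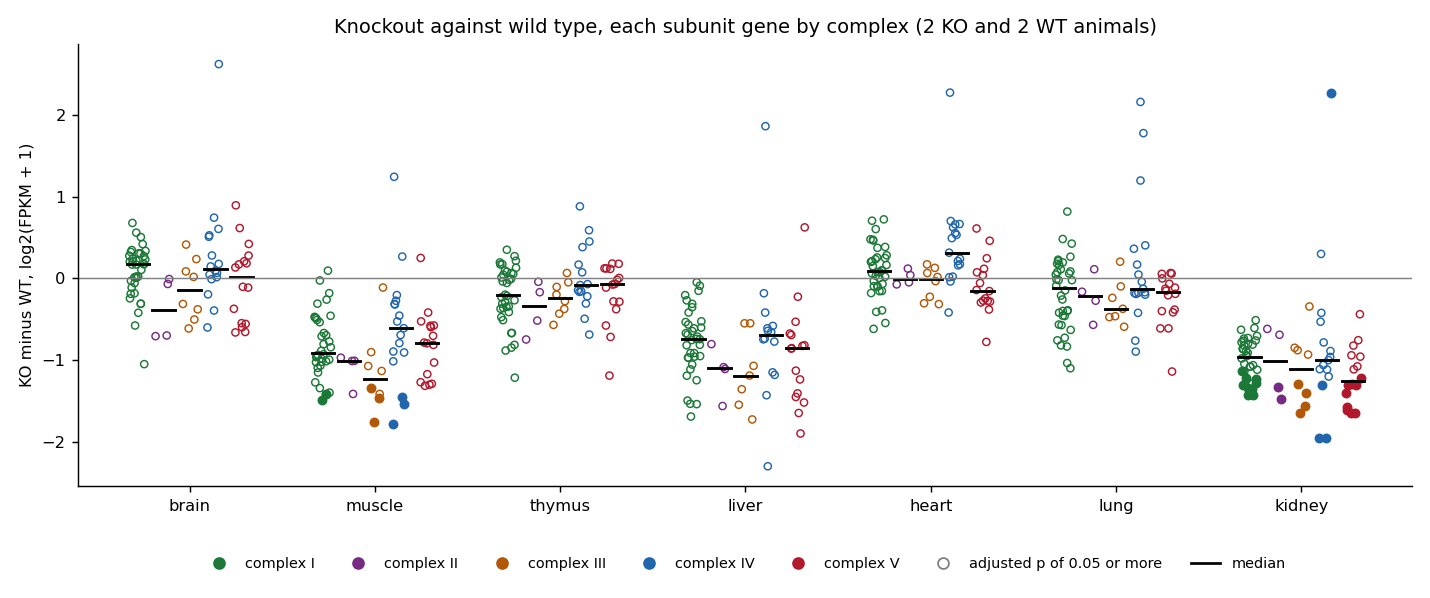
Difference between KO and WT on the log2(FPKM + 1) scale (y axis) for each subunit gene by tissue (x axis) and complex (colour). Filled points passed an adjusted p of 0.05, open points did not, and bars are the median of a complex. The medians of muscle, liver and kidney lie below 0 in all complexes. Those of thymus and lung do as well, but lie nearer 0. Filled points appear in muscle and kidney only.

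Kidney held the largest number of changed subunits. In kidney 28 of 79 subunits tested were lower in KO and 1 was higher, beside 5.78% of all genes called, 4.76% lower and 1.02% higher. The median log2 change was -1.06, against -0.04 over all genes. The 1 higher was COX7B2, which was tested through its KO level alone. All complexes were represented: 10 of 36 complex I genes were lower, 2 of 4 in complex II, 4 of 8 in complex III, 3 of 15 tested in complex IV and 9 of 16 in complex V. Both KO animals were below both WT animals for 74 of the 79, beside 29.6% of all genes, and above for 1, beside 22.9%.

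COX5A in kidney was at 25.7, 30.2, 101 and 122 FPKM and changed by -1.95 ± 0.28 (adjusted p = 0.00764). COX8A was at 267, 389, 1234 and 1252 FPKM and changed by -1.95 ± 0.33 (adjusted p = 0.0142). UQCRFS1 was at 28.1, 37.3, 99.1 and 108 FPKM and changed by -1.65 ± 0.28 (adjusted p = 0.0145). The KO values of all 3 lay far below the WT values, with no overlap.

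In complex V, 9 of 16 genes were lower in kidney, ATP5S among them. ATP5G1, which encodes the c-ring protein of ATP synthase, was at 69.4, 75.5, 198 and 263 FPKM and changed by -1.64 ± 0.29 (adjusted p = 0.0156). ATP5H, a subunit of the peripheral stalk, was at 73.5, 88.4, 224 and 261 FPKM and changed by -1.58 ± 0.28. ATP5B was at 119, 149, 311 and 401 FPKM and changed by -1.40 ± 0.30, and ATP5G3, another gene for the c-ring protein, by -1.61 ± 0.27. In complex II, SDHB was at 33.7, 57.6, 119 and 130 FPKM (-1.48 ± 0.32) and SDHA at 22.4, 27.0, 56.4 and 70.4 (-1.32 ± 0.28). In complex I, NDUFS1 was at 10.8, 13.1, 26.6 and 34.0 FPKM (-1.27 ± 0.29), and NDUFV2, an iron-sulfur subunit of the NADH-oxidising arm, changed by -1.43 ± 0.29. All of these passed the threshold.

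For a few subunits the change in kidney exceeded that elsewhere. Set against the average KO change of the other 6 tissues, the kidney change was more negative for 7 of 82 subunits, beside 2.84% of all genes called, 2.23% lower and 0.612% higher. These were COX8A (-1.30 ± 0.21), COX6A1 (-1.19 ± 0.19), COX5B (-1.16 ± 0.21), ATP5L (-1.07 ± 0.19), SDHB (-1.05 ± 0.19), ATP5G1 (-1.04 ± 0.19) and ATP5H (-0.997 ± 0.18). No subunit passed the same comparison for muscle, where 0.0% of all genes passed, 9 subunits had an unadjusted p under 0.05, beside 13.0% of all genes, and the median was -0.51. None passed for heart, beside 0.186% of all genes, where 4 subunits had an unadjusted p under 0.05, beside 12.7% of all genes. Neither of these counts stands above the share of all genes.

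The kidney counts rest on both WT animals. Leaving out WT2 or WT3 left 0 subunits called in kidney, leaving out KO2 left 20 and leaving out KO3 left 54. Quantile normalisation left 9, with a median of -0.65 and 77 of 79 changes below 0, and no filter on low genes left 0. The 7 that were lower in kidney than elsewhere became 0 without KO2, WT2 or WT3, 28 without KO3, and 0 with quantile normalisation, with a pseudocount of 0.1 or with no filter on low genes. Kidney epithelial markers summed to 458, 756, 3674 and 3671 FPKM, with 4 of 8 genes lower in KO and none of the 8 at 0 in all libraries. Fibroblast markers summed to 783, 810, 397 and 426 FPKM, and erythroid markers to 191, 77.5, 1539 and 1371. The part of these 3 lists in the subunit result was not tested. In the same kidneys 11 of 17 citric acid cycle genes were lower (median -1.33), as were 7 of 17 genes for electron carriers and coenzyme Q synthesis, while none of 44 assembly factors passed (median -0.52).

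In liver the subunits lay lower in KO without a call. None of 77 subunits tested passed, beside 1.1% of all genes called, and 28 had an unadjusted p under 0.05, beside 14.7% of all genes. The median log2 change was -0.81, against -0.19 over all genes, and 75 of 77 changes were below 0. Both KO animals were below both WT animals for 60 of the 77, beside 31.6% of all genes, and above for 2, beside 15.8%. COX5A in liver was at 13.0, 13.6, 44.4 and 97.1 FPKM, a log2 change of -2.30 ± 0.50 with an adjusted p of 0.0618. UQCRQ was at 282, 225, 601 and 1150 FPKM (adjusted p = 0.0846) and ATP5B at 51.0, 87.7, 189 and 335 (adjusted p = 0.0924). In each of the 3 both KO animals lay below both WT animals, and WT3 lay well above WT2. Macrophage markers in liver summed to 30.7, 230, 950 and 804 FPKM and erythroid markers to 1744, 2211, 4425 and 3265, and their part in these values was not tested.

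In heart, brain, thymus and lung no subunit passed either. In heart 0 of 81 passed, beside 0.18% of all genes, and 3 had an unadjusted p under 0.05, beside 9.2%. The heart median was 0.07, and quantile normalisation turned it to -0.31, so no direction is given. In brain 0 of 80 passed, beside 0.0% of all genes, in thymus 0 of 79, beside 0.00772%, and in lung 0 of 80, beside 0.0%. An unadjusted p under 0.05 was reached by 2 subunits in brain, 2 in thymus and 4 in lung, beside 12.7%, 5.92% and 7.27% of all genes, so the subunits lay below the share of all genes in each. Their medians were 0.09, -0.14 and -0.17, against -0.20, -0.21 and -0.17 over all genes. NDUFS1 was among the 3 smallest p in brain, at 7.41, 11.5, 20.2 and 20.2 FPKM (-1.05 ± 0.33, adjusted p = 0.388), and in thymus, at 4.49, 11.4, 18.1 and 18.2 FPKM (-1.21 ± 0.50, adjusted p = 0.7). The KO animals lay below the WT animals for NDUFS1 in both, with KO2 the lowest. SDHC in brain was at 4.41, 4.47, 9.10 and 6.84 FPKM, also without overlap. ATP5S was at 0.473, 1.10, 4.03 and 2.21 FPKM in thymus and at 0.553, 0.860, 3.41 and 2.20 in lung, with both KO animals lower in each. It was tested there through its WT level alone, since its KO mean was under 1 FPKM. COX4I2 in thymus was at 2.78, 4.21, 1.34 and 1.51 FPKM. In heart NDUFB7 was at 652, 714, 372 and 460 FPKM and NDUFA2 at 638, 663, 415 and 388, both accessory complex I genes with both KO animals higher. None of these passed, and each is among the 3 smallest p of its tissue.

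COX7B2 was higher in both KO animals than in both WT animals in 6 of 7 tissues. This gene is a copy of COX7B known mainly from testis. Its FPKM was 4.20, 8.82, 0.149 and 0.160 in brain and 2.63, 6.37, 0.0968 and 0 in kidney. In heart it was at 2.92 and 4.95 in the KO animals and was listed at 0 in every WT library. It was also listed at 0 in every WT library of thymus, liver and lung, where the KO animals had 1.06 and 0.702, 1.91 and 3.92, and 1.24 and 4.57. Muscle was the exception, with 0.279, 5.73, 0.309 and 0.143 FPKM, where KO2 was within the WT range.

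Over the 7 tissues the mean level of COX7B2 was 3.52 FPKM in KO and 0.0614 in WT. The gene therefore met the filter of 1 FPKM through the KO animals alone, over the 7 tissues and in each tissue where it was tested, and had to differ there. Its differences are given as a description: 1.85 ± 0.27 on the log2(FPKM + 1) scale averaged over the 7 tissues, 2.26 ± 0.41 in kidney, 2.27 ± 0.45 in heart and 2.62 ± 0.41 in brain. It was the only one of 82 subunits called over the 7 tissues, beside 0.492% of all genes. An unadjusted p under 0.05 was reached by 26 of the 82, beside 13.3% of all genes. The level remained small beside COX7B, at 2.15% or less of the pair in every tissue. With no filter on low genes, where its level does not decide whether it is tested, it did not pass over the 7 tissues (adjusted p = 0.453) or in kidney (adjusted p = 0.286), and quantile normalisation also ended the call over the 7 tissues (adjusted p = 0.104). Its mean was too low for a test with a filter of 5 FPKM, and too low without KO3, when 13 other subunits were called, 1 higher and 12 lower. In kidney the call was lost without WT2 and without WT3 (adjusted p = 0.0925 and 0.0943). COX7B and COX7B2 are similar in sequence, and the sources used here do not say how fragments that match both were assigned.

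COX8C is the other complex IV form known from testis. In lung it stood at 3.86 and 3.21 FPKM in the KO animals and in brain at 0.702 and 0.661, and it was listed at 0 in every WT library of both. Its lung test rests on the KO level alone in the same way, did not pass, and is not given. In liver, kidney, muscle and heart it was listed at 0 in all libraries except those of KO2, and in thymus it stood at 11.3, 0.117, 1.94 and 8.09 FPKM, with no order by genotype. COX6B2 had a mean under 1 FPKM over the newborn libraries and was the 1 subunit left out of the comparisons over all tissues. NDUFA4L2, a hypoxia-induced relative of NDUFA4, was at 3.48, 7.31, 1.13 and 2.32 FPKM in lung and 0.969, 2.67, 11.1 and 1.44 in muscle, so WT2 muscle stood apart.

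The 3 genes ATP5G1, ATP5G2 and ATP5G3 encode the same mature c-ring protein of ATP synthase, and their shares were set side by side after their values had been seen. In muscle ATP5G2 was at 193, 252, 175 and 196 FPKM, hardly different between genotypes. ATP5G1 was at 133, 125, 318 and 306 FPKM, and ATP5G3 at 39.7, 73.4, 122 and 146, both with the KO animals below the WT animals, though neither passed. The ATP5G2 share of the 3 was 52.7% and 55.9% in the KO animals and 28.4% and 30.25% in the WT animals. In liver it was 57.65%, 40.3%, 23.8% and 13.0%, and in kidney 31.1%, 41.8%, 22.6% and 17.3%. The mean share was higher in KO in all 7 tissues, and the genotypes did not overlap in 6, lung being the exception with 30.3%, 53.4%, 44.1% and 25.9%. In brain the gap was narrow, with 25.32% in KO3 against 25.30% in WT2. The exact permutation p was 0.33 in each of the 6, the smallest possible.

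**Figure D4:**
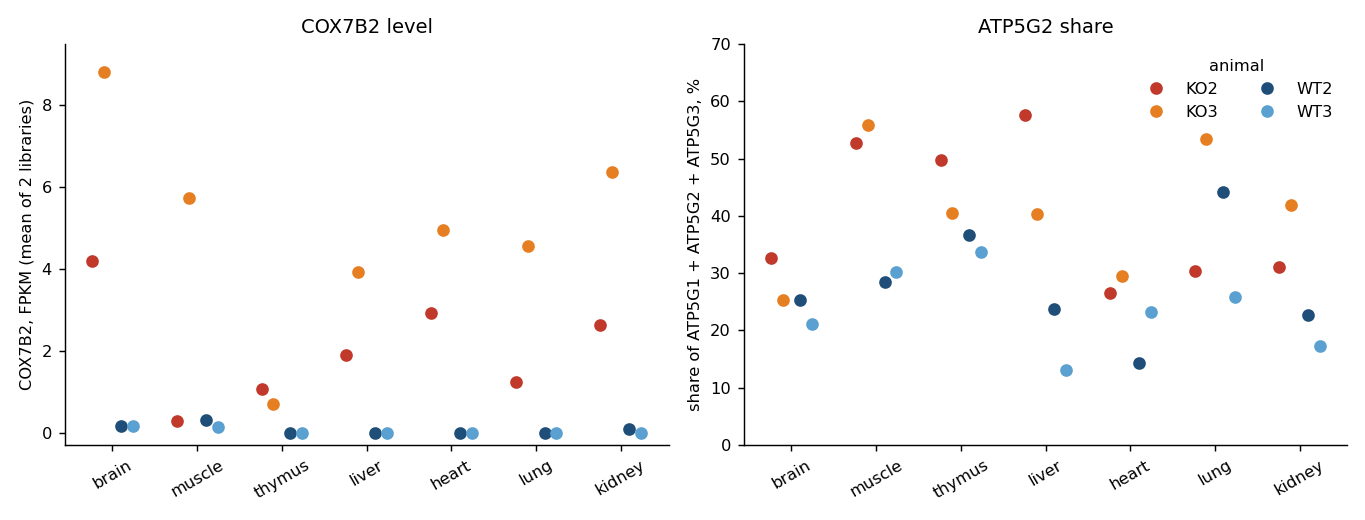
Left, FPKM of COX7B2 (y axis) by newborn tissue, 1 point per animal. Right, share of ATP5G2 in the sum of ATP5G1, ATP5G2 and ATP5G3 (y axis, percent). COX7B2 is above the WT animals in both KO animals in every tissue but muscle, and the ATP5G2 share is above both WT animals in both KO animals in every tissue but lung.

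The fetal libraries gave the order in time, within the fetal table. In fetal brain none of 78 subunits tested passed between month 4 and month 2, beside 4.01% of all genes called, and 14 had an unadjusted p under 0.05, beside 19.1% of all genes. The median log2 change was 0.33, and 0.08 with quantile normalisation. NDUFA4L2 was at 8.44 and 4.42 FPKM at month 2 and 2.52 and 1.80 at month 4, and NDUFA3 and NDUFA10 had log2 differences of 0.93 ± 0.22 and 0.71 ± 0.20, the 3 smallest p of fetal brain (adjusted p = 0.0644, 0.0536 and 0.0929). In fetal muscle 21 of 80 subunits were higher at month 4 and 7 were lower, beside 37.9% of all genes called, 22.3% higher and 15.7% lower. The share called among the subunits was therefore near that of all genes. The median change was 0.07, against 0.16 over all genes, so the subunits did not move as a block but in opposite directions by gene.

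Among the genes that rose with gestation in muscle were all 4 of complex II and core subunits of complexes I, III and V. UQCRFS1 was at 16.7 and 14.0 FPKM in the month 2 libraries and 84.2 and 109 at month 4, a log2 change of 2.57 ± 0.19 (adjusted p = 2.56e-05). ATP5B went from 59.2 and 57.2 to 226 and 251 FPKM (2.02 ± 0.17, adjusted p = 4.64e-05). SDHA went from 16.2 and 12.1 to 39.7 and 53.4 FPKM (1.65 ± 0.21), and the other 3 complex II genes, SDHB, SDHC and SDHD, also rose. NDUFS1 went from 6.48 and 5.96 to 19.9 and 19.9 FPKM (1.53 ± 0.18). UQCRC2 of complex III (1.35 ± 0.17) and COX5A (1.31 ± 0.21) rose as well. The month 2 and month 4 libraries did not overlap in any of those whose values are given.

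The genes that fell include COX6A1, the form of most other tissues. COX6A1 was at 196 and 200 FPKM at month 2 and 88.9 and 83.7 at month 4, a log2 change of -1.19 ± 0.17 (adjusted p = 0.000644). COX7A2L, a relative of COX7A2 that takes part in joining complexes III and IV, went from 57.6 and 53.9 to 22.5 and 26.3 FPKM (-1.16 ± 0.17). COX4I2 went from 46.7 and 51.2 to 29.5 and 34.9 FPKM (-0.59 ± 0.18). The accessory complex I genes NDUFA2 (-0.83 ± 0.18), NDUFS5 (-0.80 ± 0.19) and NDUFA12 (-0.67 ± 0.19) and ATP5J of complex V (-0.65 ± 0.18) made up the rest.

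The muscle isoforms made up a larger share at month 4. COX7A1 rose from 145 and 207 to 293 and 514 FPKM (1.16 ± 0.27, adjusted p = 0.00925), and its share of the pair went from 58.0% and 64.1% to 76.9% and 88.7%. COX6A2 was at 368 and 330 FPKM at month 2 and 272 and 518 at month 4 (0.11 ± 0.27, not past the threshold), while its share went from 65.2% and 62.25% to 75.35% and 86.1%. In the newborn table, which was not tested against the fetal one, the muscle shares of the WT animals were 94.4% and 96.2% for COX7A1. For COX6A2 they were 79.2% and 90.2%. The KO shares of COX7A1, 91.3% and 89.5%, lay between the month 4 and the WT newborn values, with the month 4 library at 88.7% close below. Those of COX6A2, 88.0% and 84.0%, lay within the WT newborn range. The ATP5G2 share was 40.4% and 44.6% at month 2 and 32.8% and 33.8% at month 4. In newborn muscle it was 52.7% and 55.9% in KO, above both months, and 28.4% and 30.25% in WT, below both. The exact test cannot go below p = 0.33 for any of these shares.

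The change between the months was also compared between muscle and brain. Of 80 subunits tested, 7 had a more positive change in muscle and 2 a more negative one, beside 14.0% of all genes called, 6.61% higher and 7.39% lower. The share called among the subunits, 11.2%, was no higher than that of all genes. Among the 7 were ATP5B (1.94 ± 0.27), UQCRFS1 (1.86 ± 0.27), UQCRC2 (1.29 ± 0.25), SDHA (1.26 ± 0.30), NDUFA5 (1.25 ± 0.30) and SDHC (1.21 ± 0.29). COX6A1 (-1.88 ± 0.27) and COX7A2L (-1.54 ± 0.24) were the 2 with the opposite sign. COX6A1 in brain was at 181 and 188 FPKM at month 2 and at 258 and 343 at month 4. The median over all subunits was -0.18 and turned to 0.10 with quantile normalisation, so only the single genes are given a direction. The count was 4 without either month 2 muscle library, 5 without the second month 4 brain library and 13 without the first.

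**Figure D5:**
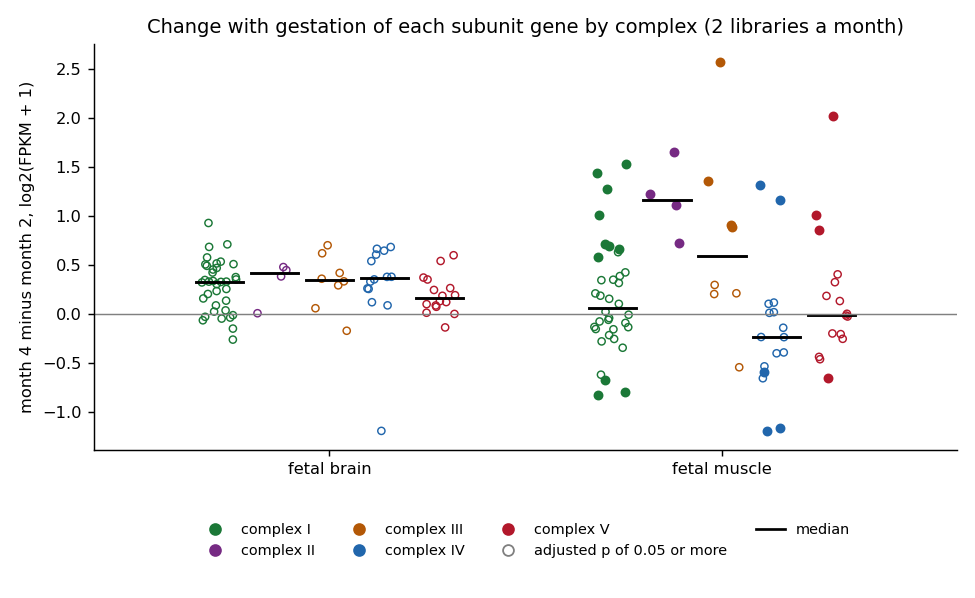
Difference between gestation month 4 and month 2 on the log2(FPKM + 1) scale (y axis) for each subunit gene in fetal brain and fetal muscle (x axis), by complex (colour). Filled points passed an adjusted p of 0.05, open points did not, and bars are the median of a complex. Brain has no filled point, while fetal muscle has filled points on both sides of 0 in complexes I, IV and V.

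Fibre and other markers moved with gestation in the same muscle libraries. Slow-fibre markers summed to 3120 and 2877 FPKM at month 2 and 7846 and 8845 at month 4, with 6 of 9 tested genes higher. Embryonic-fibre markers summed to 6626 and 5600 FPKM at month 2 and 1808 and 1334 at month 4, with 6 of 8 lower. Heart markers summed to 654 and 595 FPKM at month 2 and to 11.6 and 12.6 at month 4. The heart list shares MYL4 and TNNT2 with the embryonic-fibre list, so these sums are not independent. Liver markers summed to 103.5 and 84.6 FPKM at month 2 against 13.0 and 2.38 at month 4. The part of these markers in the subunit changes was not tested. Of 17 citric acid cycle genes 14 were higher at month 4 and none lower, and of 43 assembly factors tested 8 were higher and 9 lower. The muscle count was 17 and 15 without the first and the second month 2 library, 40 and 46 without the first and the second month 4 library, and 7 with no filter on low genes.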

How the data were processed

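The authors deposited FPKM (fragments scaled by gene length and library size) for each gene in a newborn and a fetal table. Per the labels' protocols RNA was extracted with TRIzol and RNeasy, and libraries were made with a TruSeq kit. Tools listed in the submitters' processing notes are CASAVA, Cufflinks 2.0.2 and HISAT 0.1.6, with no role or order. No build, annotation or strand setting is given in the sources used here. FPKM keeps no depth, so depth and precision are unknown. A value of 0 may be a failed estimate and is called listed at 0.

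Repeats of log2(FPKM + 1) were averaged per animal. Genes averaging at least 1 FPKM across a comparison's libraries were fitted with limma 3.58.1 in R 4.3.3 (lmFit, eBayes with trend), with Benjamini-Hochberg adjustment over all genes tested and a threshold of 0.05. Log2 changes understate those of low genes. Tissues were compared from each animal's own differences, KO and WT together. Fetal libraries were the replicates, and nothing says they came from separate fetuses, so those p-values may measure technical spread. The newborn and fetal tables were not tested against each other. Shares are ratios of FPKM within a library.

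Of 11294 LOC rows, 721 were given a symbol. The fit was tested on simulated data. The members, gene lists and tests were chosen with earlier results of these data known. Named genes were the isoform pairs, NDUFS1, SDHA, UQCRC1, COX5A and ATP5B, up to 10 members per direction past the threshold by size, and the 3 smallest p where none passed. COX7C, UQCR10 and the 6 genes with opposite signs in heart and muscle were named after their values were seen. Results of 1 subunit that the rule names are not reported here. Alternatives were a pseudocount of 0.1, no filter, a filter of 5 FPKM, quantile normalisation, leaving out each animal or library, libraries as replicates, and a block for the replicate number.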

Additional observations from a re-analysis of the deposited data

Results flagged for a closer look

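For 7 subunits the KO change in kidney differed from that in the other 6 tissues by a test of the difference itself (limma, 2 KO and 2 WT animals). The log2 differences were -1.30 for COX8A, -1.19 for COX6A1, -1.16 for COX5B, -1.07 for ATP5L, -1.05 for SDHB, -1.04 for ATP5G1 (-1.045 unrounded) and -0.997 for ATP5H. For 9 subunits the change from month 2 to month 4 differed between fetal muscle and fetal brain by the test of the interaction. Among these were ATP5B (1.94), UQCRFS1 (1.86), UQCRC2 (1.29), SDHA (1.26), NDUFA5 (1.25), SDHC (1.21), COX7A2L (-1.54) and COX6A1 (-1.88).

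For 6 of 82 subunits tested the difference of heart minus muscle was positive in both KO animals and negative in both WT animals, beside 3.74% of all genes. The reverse was found for none. Opposite signs in either direction were thus found for 6 of 82 subunits, beside 10.8% of all genes. This genotype difference was not tested. The difference between the genotype means was 1.66 for COX7A1, 0.90 (0.896 to 3 digits) for SDHC, 0.74 for ATP5D, 0.65 for NDUFA7, 0.63 for NDUFV3 and 0.23 for COX6A2.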

How the results depend on the processing

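The counts of subunits called in the genotype comparisons depended on the processing. Directions were compared between fits for named genes only, and among these no difference past the threshold reversed. Other subunits called, in the main or the alternative fits, were not compared in this way. With repeat libraries taken as replicates the counts were 18 in brain, 61 in muscle, 3 in thymus, 54 in liver, 11 in heart, 12 in lung and 72 in kidney, but repeats of an animal are not separate animals. With no filter on low genes they were 0 in muscle, 0 in kidney, 0 over 7 tissues, 0 for kidney against the other tissues, 5 for heart against muscle, 48 for lung and 7 for fetal muscle. Quantile normalisation left 0 in muscle, 9 in kidney, 0 over 7 tissues and 0 for kidney against the others. A filter of 5 FPKM gave 0 over 7 tissues and 1 in fetal brain, and a pseudocount of 0.1 gave 0 for kidney against the others. The cause was not tested.

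With the replicate number as a block the count was 1 in liver, 1 in heart, 6 in muscle, 22 in kidney, 1 in fetal brain and 30 in fetal muscle. The numbers are those of different animals, and deviations of same-numbered animals correlated between -0.0968 and 0.0901 over the 7 tissues, so they do not pair the samples.

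Leaving out 1 animal or library gave ranges of 0 to 4 in brain, 0 to 6 in muscle, 0 to 1 in thymus, 0 to 3 in liver, 0 to 1 in lung, 0 to 54 in kidney and 1 to 13 over 7 tissues. They were 0 to 28 for kidney against the others, 0 to 1 for muscle against the others, 0 to 12 for heart against muscle and 11 to 32 for brain against the other tissues. In the fetal set they were 0 to 2 in brain, 15 to 46 in muscle and 4 to 13 for muscle against brain. A lone animal in an arm is then assumed to vary like the rest. The striated muscle count stayed between 74 and 80 in all fits run, and that of lung between 66 and 75 when animals were left out. The difference of KO minus WT in the summed share, without the 50 highest genes, was 0.887 percentage points in brain, 0.195 in thymus and -0.004 in heart. The genes left out included subunits, more of them in WT than in KO libraries of heart and brain.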
